A study of Mus musculus with 6 samples.

Results

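The piRNA cluster at 18:67028034-67088022 is a 60.0 kb stretch of mouse chromosome 18 that ends 194 bases before Gnal, the gene for an olfactory G protein alpha subunit. Its members are the 220980 entries of the deposited piRNA table whose names carry that cluster, out of 9924085 entries in 773 clusters. Entries of the same position, strand and length were summed, which gave 105986 places, and 56154 of these had at least 1 count. The members were chosen by position. The cluster itself was picked with earlier results of these counts in view, so its total and the strand and length class that make up most of it are given as a description, with no test.

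Small RNA was sequenced from purified round spermatids, haploid cells that have completed meiosis and will become sperm, of C57BL/6 mice (C57BL/6J background in the protocol) at postnatal day 21. There were 3 libraries of Miwi knockout (KO) males, from a global knockout line recovered from frozen sperm, and 3 libraries of wild-type (WT) males. The comparison addressed the piRNA profile without MIWI. The labels do not say whether the numbered libraries came from separate animals, so p-values cover no more than the spread between these libraries, and that spread may be technical.

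PIWI-interacting RNAs (piRNAs) are small RNAs of the germ line that are bound by PIWI proteins. In the mouse testis, pachytene piRNAs are cut from long single-stranded precursor transcripts that are driven by the transcription factor A-MYB, and in several clusters 1 start region drives transcripts on both strands in opposite directions. MILI (PIWIL2) holds shorter piRNAs and MIWI (PIWIL1) longer ones. The 5′ end of a piRNA is set first, most often at a uridine, and the 3′ end is then trimmed back to the edge that the PIWI protein protects.

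Total counts of the piRNA table were 1772234, 1009902 and 1785660 for KO libraries 1 to 3, against 4059156, 4359620 and 6623310 for WT libraries 1 to 3. These tables count small RNAs, and no check of the genotype labels on Miwi mRNA was possible. Of miRNA counts, 3 germ cell miRNAs (miR-34b-5p, miR-34c-5p, miR-449a-5p) made up 29.6% to 33.5% in KO and 27.4% to 29.1% in WT. The 6 miRNAs of other testis cells summed to 2.41% to 2.82% in KO and 2.96% to 3.98% in WT. None of the 9 was at 0, and neither list overlapped between the genotypes. Their part in the results was not tested. Fewer cells of a type and less RNA per cell cannot be told apart in such bulk samples.

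The cluster contributed a smaller part of the piRNA table in KO. Its counts came to 60509, 34298 and 61935 in KO libraries, against 258842, 270146 and 423255 in WT libraries. As a share of the table this was 3.43% ± 0.0376 in KO and 6.32% ± 0.108 in WT (SD, n = 3 each), with no overlap. Against miRNA counts of the same libraries, its level per 100 miRNA counts was 24.9 ± 1.27 in KO, against 151 ± 18.2 in WT (SD, n = 3 each). By mean CPM over the 6 libraries it was number 4 of all clusters, with 21005 ± 490 CPM in KO, against 103413 ± 9706 CPM in WT (SD, n = 3 each). CPM here scales counts to the table total times its TMM factor, edgeR's correction for composition.

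The change of the total was -2.30 ± 0.08 on the log2 scale (KO over WT, approximate SE of the edgeR fit). For the 78 clusters whose mean CPM reached 1000 or more, the median change was -1.74, and 25 of them had a lower value. All such values depend on the scaling. Library size without TMM factors shifted the scale between the genotypes by 1.41 (log2, KO over WT), miRNA scaling by -0.19 and DESeq2 size factors by -0.59, so that the total changed by -0.88 without TMM factors. Fitted values of places with 0 counts in a genotype moved by other amounts. Shares within the cluster do not depend on the scaling.

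Long piRNAs were far lower in KO, whereas the 25-28 nt class did not pass the test under TMM scaling. Within it, RNAs of 26-27 nt rose by 0.42 under the same scaling (edgeR adjusted p = 2.62e-06). No other scaling was run for them, and the shift of -0.59 by DESeq2 size factors is larger than this rise. The 29-32 nt class, the usual length of MIWI-bound piRNAs, reached 4394, 4173 and 4720 CPM in KO and 80595, 77085 and 92662 CPM in WT. KO libraries were all far below the WT libraries. The log2 change of the class was -4.24 ± 0.09 (SE). Over all clusters tested in that class, 77.7% fell by edgeR's quasi-likelihood test (adjusted p under 0.05). The 33-34 nt class also fell, by 4.83 (SE 0.16, edgeR adjusted p = 1.06e-15; 91.7% of clusters tested in that class fell).

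For 25-28 nt, the usual length of MILI-bound piRNAs, the libraries had 14998, 14588 and 15003 CPM in KO and 14290, 14191 and 15851 CPM in WT. These ranges overlapped. The change was 0.01 ± 0.07 (log2, SE, edgeR adjusted p = 0.944), where 18.6% of clusters rose and 15.6% fell. Among the 45 clusters in which this class reached 1000 CPM or more, the median change was 0.48, and 11 had a lower value. The value of this cluster turned on the scaling. It was 1.42 by library size without TMM factors, -0.18 by miRNA scaling and -0.58 by DESeq2. Ratios to other clusters, which do not depend on the scaling, are given below. The 18-24 nt class averaged 1609 ± 113 CPM in KO, against 2207 ± 90.3 CPM in WT (SD, n = 3 each). It fell by 0.46 (SE 0.08, edgeR adjusted p = 0.000101; 31.4% of clusters fell), but it was higher in KO without TMM factors, at 0.96.

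The length profile of the cluster was shifted to shorter RNAs in KO. On both strands, every KO library peaked at 27 nt, and the peak of every WT library was at 30 nt. The 27 nt share of the cluster was 24.04% ± 0.267 in KO, against 3.99% ± 0.152 in WT (SD, n = 3 each). The 30 nt share was 6.69% ± 0.405 in KO, against 32.6% ± 0.284 in WT. Among 25-32 nt counts, 29-32 nt made up 22.7%, 22.2% and 23.9% in KO libraries and 84.9%, 84.5% and 85.4% in WT libraries, a difference of -62.0 percentage points. By the exact two-sided permutation test p was 0.1, and 3 libraries against 3 cannot give a smaller one. In all, 111 shares, levels, lengths and distances were compared in this way, and the lowest Benjamini-Hochberg adjusted p was 0.104.

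**Figure D1:**
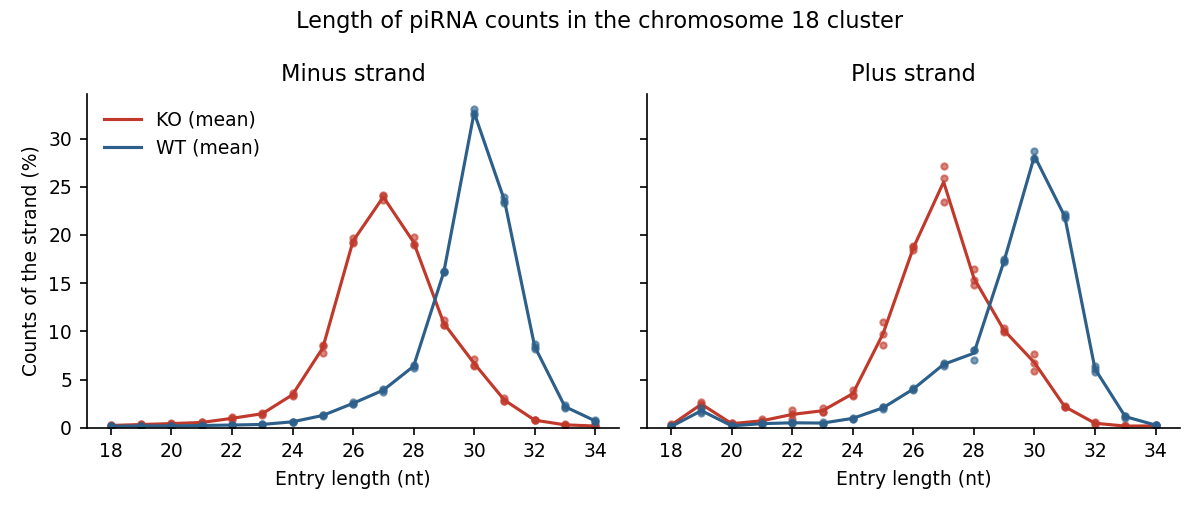
Share of each strand's counts (%) against entry length (nt). Lines are means of the 3 KO and the 3 WT libraries and points are single libraries; both strands peak at 27 nt in KO and at 30 nt in WT.

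The lengths are those of table entries, since the tables hold no reads. At 52 mature miRNAs that the same table also covers, 92.2% of KO counts and 87.3% of WT counts lay within 2 nt of the annotated length. Within 1 nt lay 73.2% in KO and 69.4% in WT. The mean difference from the annotated length was 0.85 nt in KO and 1.17 nt in WT. A limit of 2 nt is about as wide as the length shift at shared 5′ ends given below, so it cannot check that shift. Counts in entries of 25 nt or longer made up 20.4% there in KO, against 23.96% in WT, so that some counts stand at longer entries than the annotated miRNA.

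The cluster has 2 arms that run apart from 1 start. The annotated start of AC140207.2, a long non-coding RNA gene on the plus strand (GRCm38 18:67066578-67084380, 1 exon), divided them. Of minus strand counts, 99.7% ± 0.00276 in KO and 99.9% ± 0.00831 in WT had their 5′ end on the low-coordinate side of it. Of plus strand counts, 98.0% ± 0.41 in KO and 98.1% ± 0.348 in WT lay on the other side (SD, n = 3 each). The plus arm lies over AC140207.2. The minus arm runs through unannotated sequence to AC140207.3, a long non-coding RNA gene on the minus strand (18:67029440-67031518). Upstream, the nearest protein-coding gene is Mc4r, a melanocortin receptor gene, 167528 bases before the cluster.

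The minus arm carried nearly all counts, and the plus arm kept more of its level in KO. The minus strand had 19865, 19119 and 20063 CPM in KO and 96847, 92786 and 110894 CPM in WT. The plus strand had 1348, 1325 and 1292 CPM in KO and 3037, 3179 and 3494 CPM in WT. Neither strand's ranges overlapped. The log2 change of the minus strand was -2.35 ± 0.08 (SE; 41.6% of minus strands of clusters fell). The plus strand fell by 1.29 (SE 0.09, edgeR adjusted p = 1.14e-25; 43.3% of plus strands fell), although the plus strand was 0.12 higher in KO without TMM factors.

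The plus strand took 6.36%, 6.48% and 6.05% of the counts in KO libraries and 3.04%, 3.31% and 3.05% in WT libraries (difference 3.16 percentage points, exact permutation p = 0.1). Every KO library was above every WT library. The clusters on chromosomes 17 and 6 described below also had a higher plus strand share in KO. Plus is the minor strand on chromosome 18, however, and the major strand on chromosome 6, so that the minor strand lost share there. In the chromosome 18 cluster the plus share was also higher in KO within 29-32 nt (5.83% ± 0.154 in KO and 2.86% ± 0.133 in WT) and within 25-28 nt (6.18% ± 0.29 in KO and 4.47% ± 0.203 in WT). Plus strand RNAs of 25-28 nt rose by 0.47 (log2, SE 0.09, edgeR adjusted p = 0.000112; 22.1% of plus strands rose in this class), but by DESeq2 size factors the value was -0.11. Minus strand RNAs of 25-28 nt had a value of -0.02 ± 0.07 (edgeR adjusted p = 0.865; 20% of minus strands rose and 17% fell in this class), and this was 1.40 without TMM factors and -0.61 by DESeq2.

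**Figure D2:**
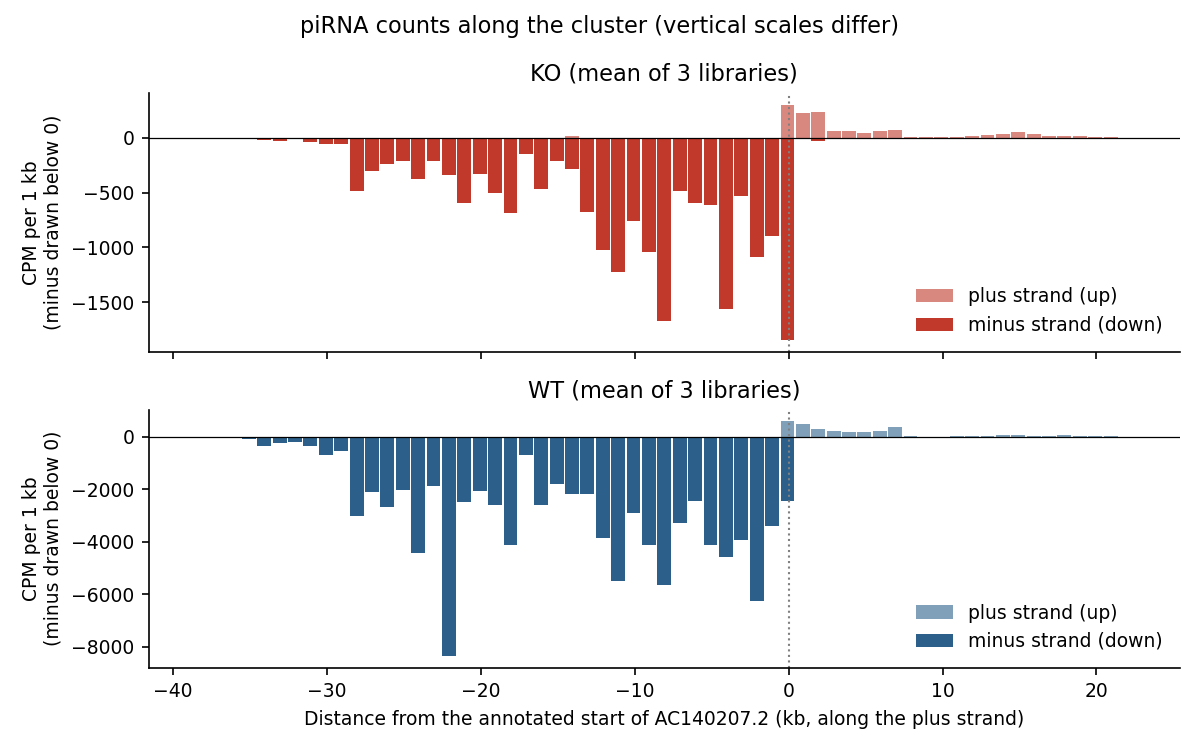
Mean CPM per 1 kb (plus strand up, minus strand down) against distance from the AC140207.2 start (kb), KO above WT, mean of 3 libraries each; the vertical scales differ. The arms part at the start, and the KO profile is highest beside it while the WT profile is highest near -22 kb.

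On average, counts lay nearer the start in KO. The mean distance of minus strand 5′ ends from it was 10.6, 10.7 and 10.4 kb in KO libraries and 13.5, 13.6 and 13.6 kb in WT libraries. The groups did not overlap (difference -2.97 kb, exact permutation p = 0.1). The difference was -2.63 kb without the 10 places of highest mean CPM and -2.13 kb without the first kb. On the plus strand the mean distance was 4.36 ± 0.0781 kb in KO and 5.07 ± 0.0914 kb in WT (SD, n = 3 each). There the shift was not a plain one toward the start. The share at 0-3 kb was 60.9% in KO and 47.2% in WT, and at 3-8 kb 21.3% and 36.4%. The far stretch, 8-18 kb, held more in KO as well, at 15.7% against 12.5% in WT.

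The first kb of the minus arm held 12.6% ± 0.666 of the arm's counts in KO and 4.51% ± 0.0557 in WT. The stretch from 20 to 30 kb held 16.1% ± 0.336 in KO and 29.6% ± 0.0445 in WT (SD, n = 3 each). Both length classes showed the shift. Of 25-28 nt counts, 13.5% ± 0.845 lay in the first kb in KO and 5.83% ± 0.114 in WT, and of 29-32 nt counts 9.80% ± 0.372 in KO and 4.16% ± 0.0626 in WT.

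In level, 25-28 nt RNAs of the first kb averaged 1883 ± 148 CPM in KO, against 823 ± 69.4 CPM in WT. At 30 to 40 kb, they averaged 96.4 ± 11.7 CPM in KO, against 245 ± 18.3 CPM in WT (SD, n = 3 each). Under TMM scaling, the class was thus higher in KO at one end of the arm and lower at the other. Another scaling moves both ends alike. The share of 29-32 nt among 25-32 nt counts in KO was 17.8% ± 0.339 in the first kb, 20.7% ± 0.71 from 0 to 10 kb, 24.5% ± 1.38 from 10 to 20 kb and 27.5% ± 0.531 from 20 to 30 kb. In WT it was 80.3% ± 0.574 in the first kb, 83.4% ± 0.463 from 0 to 10 kb, 83.8% ± 0.614 from 10 to 20 kb and 88.9% ± 0.372 from 20 to 30 kb. From 30 to 40 kb this share was 29.3% ± 4.83 in KO and 83.1% ± 1.19 in WT, so that it did not rise to the end of the WT arm.

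In bins of 1 kb and 1 strand, 64 passed the filter on low counts, 60 fell and 0 rose (edgeR, adjusted p under 0.05; 57.8% of the tested bins of all clusters fell and 8.57% rose). The 4 bins of highest mean CPM were all on the minus strand. The bin at 67044001-67045000 had the lowest value, -4.62 ± 0.10 (log2, SE). Its counts were 984, 575 and 968 in KO, against 21993, 20769 and 34104 in WT, and it contains the strongest 5′ end of the cluster.

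The bins at 67064001-67065000, 67058001-67059000 and 67055001-67056000 changed by -2.52, -1.75 and -2.16. Beside the start, the minus bin at 67066001-67067000 had a value of -0.40 ± 0.09 (log2, SE). Its counts were 5229, 2829 and 5831 in KO, against 5964, 6240 and 10347 in WT. No bin passed the threshold upwards. The highest value, 0.44 ± 0.24 (edgeR adjusted p = 0.101), was a plus strand bin at 67052001-67053000, within the minus arm, where 1 entry of 19 nt held 105 of 111 KO counts and 87 of 103 WT counts.

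Along the minus strand, Spearman's rho between distance and the bin's log2 change was -0.65 over 40 bins of the same libraries. These include bins behind the start. It was -0.61 over the 38 bins of the arm, and -0.58 over the 37 bins beyond the one that holds the start. On the plus strand it was -0.15 over 24 bins, which include bins within the minus arm. Among 75 cluster arms with at least 10 tested bins, 49 had a negative rho and the median was -0.15. Of these arms, 9 were below the -0.65 of the minus strand here. These are descriptions of bins that share libraries and depth.

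**Figure D3:**
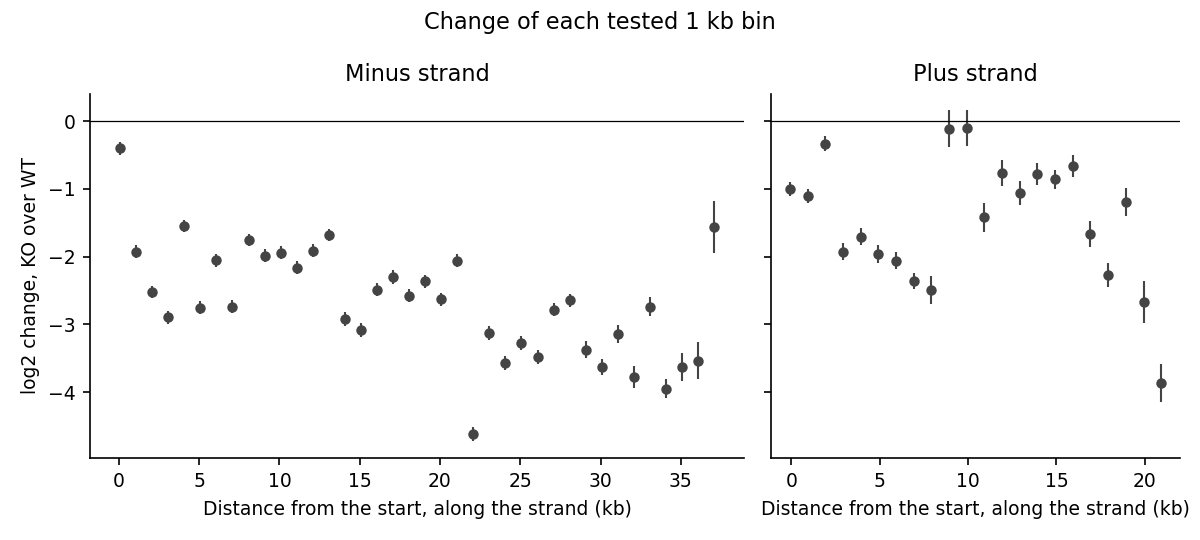
log2 change (KO over WT) of each tested 1 kb bin against distance from the start (kb) along its own strand, with the approximate SE; bins behind the start are left out. The first minus bin, at -0.40, is the highest of its arm, and the bin near 22 kb, at -4.62, is the lowest.

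Single piRNA species were then tested as places. Of the cluster's places, 3774 passed the filter on low counts, and these held 51.2% of its KO counts and 72.2% of its WT counts. Of these, 3070 fell, 397 rose and 307 did not pass (edgeR, adjusted p under 0.05). Over all clusters, 70.5% of tested places fell and 20.1% rose. The median log2 change was -5.14 in the cluster and -4.34 over the table. A place that passed the filter through only 1 genotype had to differ, so these counts describe tested places alone.

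Calls of tested places differed by length in the cluster as over the table, under the same limit of the filter. Among tested places of 29-32 nt, 2733 of 2809 fell and 27 rose, against 94.1% and 2.37% over the table. At 25-28 nt, 358 of 839 rose and 232 fell, against 60.2% and 17.5% over the table. All 92 tested places of 33-34 nt fell (97.0% over the table).

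The 8 places of highest mean CPM were all on the minus strand, were 29 to 32 nt long and were low in KO. The strongest, a 30 nt RNA at 67044736-67044765, lay in no annotated gene. Its counts were 22, 9 and 12 in KO, against 9892, 7864 and 13706 in WT. All KO libraries were far below all WT libraries (log2 change -9.21 ± 0.40, SE). Scaled by TMM, its level in WT was 597 times that in KO (95% exact interval 443 to 825, counting error only).

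RNAs of 31 and 32 nt from the same 5′ end were among the 8, with 1 and 2 counts in KO, against 4814 and 3971 in WT. They share most of their sequence with the 30 nt entry, so reads may have been split among the 3 entries. A 31 nt RNA at 67055449-67055479 had 1, 1 and 4 counts in KO, against 1285, 1173 and 3157 in WT. A 29 nt RNA at 67061721-67061749 kept 5, 8 and 16 counts in KO, against 1039, 1089 and 1779 in WT.

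The remaining 3 of the 8 were a 31 nt RNA at 67064198-67064228 with 22 counts in KO against 3775 in WT, a 31 nt RNA at 67064022-67064052 with 1 in KO and 3559 in WT, and a 30 nt RNA at 67042713-67042742. The last had 0 counts in every KO library and 1010, 1057 and 1668 in WT, which is at least 1016-fold lower in KO (floor of 3 counts over the group, counting error only). It also had the largest fall. After it came 30 nt RNAs at 67045225-67045254 and 67061674-67061703, with 0 counts in KO, against 2090 and 1722 in WT, at least 568-fold and 468-fold lower in KO. The choice by mean CPM takes places that are high in WT, since the cluster's level is higher there.

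The largest rises were shorter and came from 2 5′ ends. A 25 nt RNA at 67066977-67067001 on the plus strand, within AC140207.2 and 0.40 kb past its start, had 62, 25 and 51 counts in KO, against 0 in each WT library, at least 56.4-fold higher in KO. Its 5′ end was used in WT too, at other lengths: entries of 28, 29 and 30 nt there held 73, 6 and 2 counts in KO, against 43, 45 and 55 in WT. The second 5′ end, at 67046309 on the minus strand, gave RNAs of 28 nt (55, 27 and 49 counts in KO, 0 in each WT library, at least 53.5-fold higher in KO) and 27 nt (15, 7 and 31 in KO, 0 in each WT library, at least 21.7-fold higher). Here no length had more than 1 count in WT.

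The 5′ ends, with all lengths summed, separate loss of an end from a change of length at it. Of 17713 5′ ends with counts, 2726 passed the filter; 2405 fell, 80 rose and 241 did not pass (edgeR, adjusted p under 0.05; 72.4% fell and 10.8% rose over the table). The median change was -2.82 in the cluster and -2.06 over the table.

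The 6 highest 5′ ends differed widely. Their choice by mean CPM takes ends that are high in WT, so their changes are given as a description. At 67044765, the end of the strongest RNA, all lengths together had 103, 49 and 90 counts in KO, against 12506, 10618 and 18805 in WT, a change of -7.14 ± 0.23 (log2, SE). Its 28 nt RNAs were low as well, with 45 counts in KO against 521 in WT, and its 27 nt RNAs had 1 against 28. At 24, 25 and 26 nt the difference was much smaller, with 36, 36 and 39 counts in KO against 71, 91 and 70 in WT. These are raw counts, and the WT libraries had higher table totals. With all lengths summed, a fall similar to that at 67044765, -7.05 ± 0.24, was seen at 67048716, with 45 counts in KO against 7341 in WT.

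At 67055479, the 5′ end fell by 3.35 (SE 0.19), with 263, 184 and 458 counts in KO, against 2775, 2468 and 6398 in WT. Its most frequent length was 28 nt in KO, with 50.2% of counts, and 31 nt in WT, with 48.2%. The 5′ ends at 67064228 (28 nt in KO, 31 nt in WT) and 67040218 (27 and 29 nt alike in KO, 30 nt in WT) changed by -3.75 and -5.45.

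At 2 of the 6, RNAs stayed long in KO. The 5′ end at 67038739 fell by 2.41 (SE 0.18), with 581, 349 and 583 counts in KO, against 2718, 2614 and 4738 in WT. Among its 25-32 nt counts, 29-32 nt made up 70.3%, 70.4% and 71.1% in KO libraries and 81.6%, 83.1% and 83.1% in WT libraries, and the most frequent length was 31 nt in KO and 32 nt in WT. At 67048716 the same share was 76.7% of the summed KO counts, which are few, and 82.9% of the WT counts, and the most frequent length was 29 nt in KO and 30 nt in WT.

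**Figure D4:**
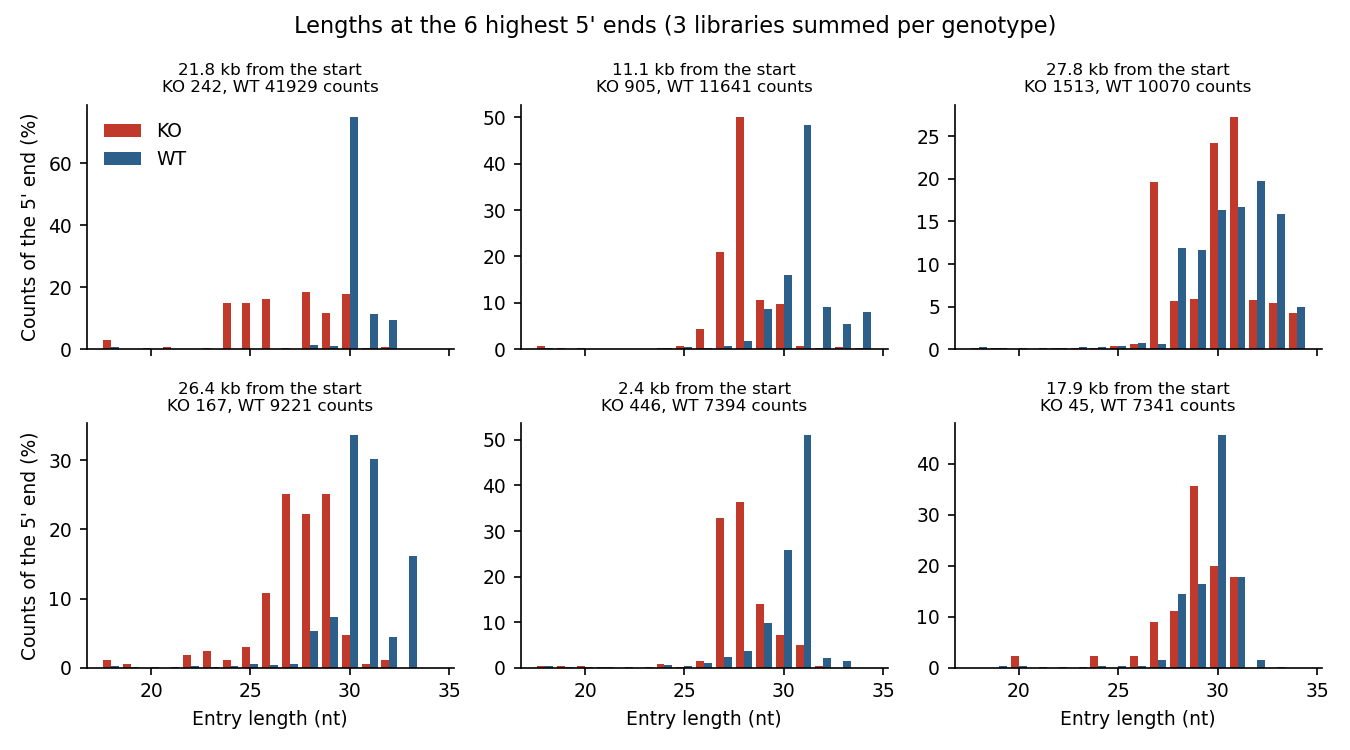
Share of the counts of each of the 6 highest 5′ ends (%) against entry length (nt), 3 libraries summed per genotype, KO bars left of WT bars. At 11.1 kb the peak is at 28 nt in KO and 31 nt in WT, while the end at 27.8 kb peaks at 31 nt in KO.

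Most 25-28 nt RNAs in KO began where longer RNAs began in WT. Of 25-28 nt counts in KO, 85.2% lay at 5′ ends with at least 10 counts of 29-32 nt in WT, and 47.8% at 3′ ends with as many. Over all clusters these shares were 75.01% and 34.4%. A fixed limit of 10 counts is met more easily where levels are high, as in this cluster. The part of level in the difference was not tested. At the 1189 5′ ends with at least 20 counts of 25-32 nt in each genotype, the mean length in KO differed from that in WT by a median of -2.03 nt (quartiles -2.70 and -1.27). The mean was shorter in KO at 1158 of them and longer at 20, and over the table it was shorter at 96.0% of 27530 such ends. At 819 of the 1189, the most frequent length was 25-28 nt in KO and 29-32 nt in WT, with ties given to the shorter length. At 202 it was 29-32 nt in both.

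The bases at the 5′ ends were read on AC140207.2, whose transcript is in the GENCODE M21 annotation. This covers 9413 of the cluster's 156742 KO counts and 27982 of its 952243 WT counts, all on the plus arm. Most of the minus arm was not read. The first base was U (T in the transcript) for 81.0%, 80.6% and 78.1% of the counts in KO libraries and 83.3%, 84.1% and 83.0% in WT libraries. The base before it was T for 29.2% ± 0.117 in KO and 28.7% ± 0.563 in WT (SD, n = 3 each), so that the bias stood at the first base of both genotypes. Among 25-28 nt counts a first U made up 81.8% ± 1.73 in KO and 82.4% ± 0.848 in WT. Among 29-32 nt counts it made up 69.7% ± 1.56 in KO and 84.2% ± 0.668 in WT, with no overlap (exact permutation p = 0.1). The KO value rests on 1847 counts. In AC140207.3, on the minus arm, a first U made up 90.0% ± 8.82 of 29-32 nt counts in KO and 82.6% ± 3.65 in WT, with overlap and only 24 counts in KO.

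Pairs of 5′ ends on opposite strands that overlap by 10 nt are the mark of PIWI slicing of paired transcripts. Summed over positions, the smaller of the 2 counts at a 10 nt overlap came to 204 in KO and 528 in WT. At other overlaps from 1 to 20 nt it was 52 to 118 in KO and 189 to 405 in WT. The 10 nt overlap was the highest in each of the 6 libraries, but it amounted to 0.13% of the cluster in KO, against 0.0554% in WT. Distances from 3′ ends to the next 5′ ends on the same strand varied less: the highest of 50 distances was 1.10 times the median in both genotypes on the minus strand, and 1.27 times in KO and 1.24 times in WT on the thinly covered plus strand.

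The 3 other clusters of highest mean CPM lay at 17:27283000-27370953, 6:127778004-127842026 and 2:92536004-92613016. Among these 4 clusters, the one on chromosome 18 had the lowest mean CPM in KO, while in WT it was below the chromosome 17 cluster and above the other 2. The share of 29-32 nt among 25-32 nt counts was 18.9% ± 1.02, 22.5% ± 0.98 and 21.3% ± 1.21 there in KO and 66.8% ± 1.13, 83.2% ± 0.439 and 81.6% ± 0.497 in WT. Within each library, the log2 ratio of chromosome 18 cluster counts to the chromosome 17 cluster was -2.39 ± 0.00589 in KO and -0.14 ± 0.0271 in WT (SD, n = 3 each). To the chromosome 6 cluster it was -0.49 ± 0.0156 in KO and 0.07 ± 0.0209 in WT, and to the chromosome 2 cluster -0.55 ± 0.0292 in KO and 0.13 ± 0.0201 in WT. For 25-28 nt counts alone, the log2 ratio to the chromosome 17 cluster was -2.35 ± 0.0115 in KO and -1.21 ± 0.0302 in WT. To the chromosome 6 cluster it was -0.50 ± 0.0201 in KO and -0.08 ± 0.0248 in WT. To the chromosome 2 cluster it was -0.55 ± 0.034 in KO and -0.17 ± 0.0098 in WT. In each case the KO libraries were all below the WT libraries (exact permutation p = 0.1). These ratios do not depend on the scaling. The plus strand share of the chromosome 17 cluster was 52.6% ± 0.166 in KO and 49.3% ± 0.299 in WT. That of the chromosome 6 cluster was 82.8% ± 0.381 in KO and 78.1% ± 0.335 in WT. Both were higher in KO with no overlap, but on chromosome 6 plus is the major strand, unlike on chromosome 18. On chromosome 2 the share was slightly lower in KO, at 99.65% ± 0.018 against 99.72% ± 0.00988 in WT.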

How the data were processed

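The authors deposited whole-number counts per reference entry and library, made with featureCounts v1.5.0-p2 per the file headers. The build mm9, cutadapt and DESeq2 are named in the submitters' processing notes. The aligner is not given in the sources used here, nor is the counting of reads with several matching entries. Small RNA was isolated with mirVana and libraries were made with the Ion Total RNA-Seq Kit v2, per the labels' protocols. Entry positions matched miRNA genes of GRCm38, although the notes name mm9, and were annotated with GENCODE M21 (GRCm38). Positions are 1-based. Length was taken as the indexed length minus 20 nt. Entries that repeat a place were summed (114994 of the cluster), and 7 entries with no strand, holding 7 counts, stayed out of strand values.

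Places, 5′ ends, 1 kb bins, strands and length classes of all clusters were tested with edgeR 4.0.16 (quasi-likelihood test, KO against WT, no block, TMM factors of the whole table, filterByExpr at min.count 10 and min.total.count 15, Benjamini-Hochberg threshold 0.05, two-sided). Each fit's p-values were adjusted over all of its features. An SE is the log2 change divided by the root of F. Shares per library were compared with exact permutation tests. The script was tested on simulated data. Named places were the 8 of highest mean CPM and the 3 largest rises and falls without overlap; named 5′ ends were the 6 highest; named bins were the 4 highest, the largest rise and fall. The bin beside the start, the distance ranges and the rising 5′ ends' lengths were chosen after their values were seen. Alternatives were DESeq2 1.42.0, library size without TMM factors, TMM factors of the miRNAs (miRNA scaling), other filters, length limits and bins, the highest entry of each place, the replicate block and leaving out each library. The members and lists were chosen with earlier results of these data known. Replicates of a genotype differed by more than sampling noise (chi-square over its degrees of freedom 1.25 to 2.74). Intervals and floors cover counting error only.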

Additional observations from a re-analysis of the deposited data

How the results depend on the processing

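Library size without TMM factors gave a total of -0.88, 0.96 for 18-24 nt, 1.42 for 25-28 nt and 0.12 for the plus strand (log2, KO over WT). It called 912 places, 384 5′ ends and 13 bins higher in KO and 1398 5′ ends lower. DESeq2 gave a total of -2.89, -0.58 for 25-28 nt, -0.11 for plus strand 25-28 nt, 238 higher places and 34 higher 5′ ends. Minus strand 25-28 nt had 1.40 without TMM factors. miRNA scaling gave a total of -2.49 and -0.18 for 25-28 nt. The 33-34 nt class fell past the threshold, and the 29-32 nt class and the minus strand kept negative values, under every alternative run. A minimum count of 30 left 122 higher and 1268 lower places and 42 higher and 1183 lower 5′ ends, and no filter gave 638 and 8574 places and 4312 lower 5′ ends, since other numbers of features were tested. With 5 kb bins, 17 of 18 fell. RNAs of 26-27 nt rose by 0.42 under TMM scaling (edgeR adjusted p = 2.62e-06), and no other scaling was run for them. The difference in long share was -71.5 points for 30-31 against 26-27 nt, -64.1 with the highest entry of each place (total -2.14) and -60.8 without the 10 highest places, where the difference in plus share was 2.93.

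Leaving out each library gave ranges of -2.35 to -2.22 for the total, -0.020 to 0.062 for 25-28 nt (-0.015 without WT replicate 1 and -0.020 without WT replicate 2), and 0 to 1 higher bins. Alternatives for distances and for strand by length class were chosen after seeing the data. Whether same-numbered libraries are pairs is not known. Their deviations correlated at 0.00071, 0.0484 and 0.0517. Libraries numbered 2 and 3 correlated best with their own number, and those numbered 1 did not. With the replicate block, 396 places were higher and 3066 lower in KO, and it changed no call of a class or strand. Depth limits single species most: places with few counts in KO give wide intervals.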
